A study of Mus musculus with 6 samples.

Results

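The collagen family was examined in the whole cerebellum of mice. Its members were the protein-coding genes whose symbols have the form Col, a number, a and a number, and 44 of the 55098 genes in the deposited table met this rule. The members fell into 11 fibrillar genes, 6 type IV genes of basement membranes and 9 FACIT genes. The remaining members were 6 genes of type VI, 3 short-chain network genes, 4 transmembrane genes, 2 multiplexin genes and 3 others. RNA was sequenced from 3 wild-type males (WT, animals 1, 3 and 5) and 3 males labelled as Slc39a14 knockout (KO, animals 2, 4 and 6). All were at postnatal day 60, no treatment is named in the labels, and each animal gave 1 library. Slc39a14 encodes ZIP14, a metal transporter of the cell membrane, and the sources used here do not state the strain or the part of the gene that the KO allele lacks. Slc39a14 itself averaged 42.3 ± 1.31 CPM (WT) against 42.2 ± 3.18 CPM (KO), where CPM are counts scaled to library size and errors are SD with n = 3 each. The gene count therefore does not check the labels, on which every direction given here rests. Where 3 values per group are listed, they stand in the order WT 1, 3, 5 and KO 2, 4, 6.

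Collagens are extracellular proteins built from 3 chains wound into a triple helix, in which glycine recurs in the repeat Gly-X-Y. Fibrillar chains carry a long unbroken helix and pack into banded fibrils. Type IV chains have an interrupted helix and form the sheet-like network of basement membranes, which in brain lie under the endothelium, around the vessels and beneath the pia. FACIT chains (fibril-associated collagens with interrupted triple helices) have short helices and attach to the surface of fibrils. Most of the brain's parenchyma holds little fibrillar collagen, and the meninges, vessels and choroid plexus are its known main sources.

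The difference between the classes can be read in the coding sequence. One stretch is shown for a fibrillar, a type IV, a FACIT and a network chain, because these genes recur in the results. Each is from the coding exons of the GENCODE M21 transcript, 5′ to 3′, with the glycine codons in capitals.
Col1a1, residues 168 to 191: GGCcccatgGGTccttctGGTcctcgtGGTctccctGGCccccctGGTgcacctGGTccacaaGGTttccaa
Col4a1, residues 151 to 183: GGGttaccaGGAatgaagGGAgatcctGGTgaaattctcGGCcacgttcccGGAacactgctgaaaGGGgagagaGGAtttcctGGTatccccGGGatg
Col9a3, residues 504 to 536: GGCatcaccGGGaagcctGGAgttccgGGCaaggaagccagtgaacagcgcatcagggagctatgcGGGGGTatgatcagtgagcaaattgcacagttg
Col8a1, residues 523 to 548: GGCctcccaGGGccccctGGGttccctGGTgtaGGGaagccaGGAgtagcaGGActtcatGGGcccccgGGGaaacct
In the Col1a1 stretch all 8 glycine codons keep the spacing of 3 codons. The Col4a1 stretch holds 10 glycine codons among 33 codons and loses the spacing for a few residues before it resumes. The Col9a3 stretch holds 6 glycine codons among 33. Its repeat breaks off partway along the stretch and resumes only beyond the end of what is shown. The Col8a1 stretch is broken only by a short gap, with 9 glycine codons among 26.

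Over whole genes the fibrillar chains stood apart in the length of this repeat. The longest run of unbroken Gly-X-Y repeats was 216 to 344 repeats in the 11 fibrillar chains (median 338). It was 39 to 66 repeats in the 6 type IV chains and 32 to 113 in the 9 FACIT chains, so that type IV lay within the FACIT range. With a run defined as at least 5 repeats, fibrillar chains held 2 to 3 runs, type IV chains 22 to 27 and FACIT chains 2 to 21. These are properties of the reference sequence and not of the libraries.

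The collagens were a small part of the cerebellar RNA. They took 0.0636%, 0.0621%, 0.0492% of the counts (WT) and 0.0638%, 0.0549%, 0.0676% (KO). The groups overlapped, with means of 0.0583% ± 0.00792 in WT and 0.0621% ± 0.00655 in KO (SD, n = 3 each), and the lowest library was WT 5. Library totals were 13805997 to 15788135 counts, so that 1 count was worth 0.0628 to 0.0731 CPM. Over all genes tested, WT 5 and KO 4 stood apart as the lowest library of the 6 most often (21.5% and 21.8% of genes, against 12.1% to 17.8% for the others). They were also the highest library most often (22.6% and 20.3%, against 12.6% to 17.6%).

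Levels of different genes were compared in the deposited FPKM (fragments scaled to gene length and library size). Col18a1, the precursor of the antiangiogenic fragment endostatin and a proteoglycan of vessel, pial and epithelial basement membranes, had the highest level. Its level was 16.0, 18.0, 12.4 FPKM (WT) and 16.0, 11.6, 18.7 FPKM (KO), so that KO 4 and WT 5 were lowest and the groups overlapped. Col9a3, a chain of the FACIT collagen IX, came second with 7.97 ± 1.21 FPKM in WT and 12.2 ± 0.384 FPKM in KO. In every library but KO 4 the level of Col18a1 exceeded that of Col9a3, and in KO 4 they were 11.6 and 11.9 FPKM.

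After these came the fibrillar chain Col5a1 (mean over all 6 libraries 4.41 FPKM), Col4a1 (3.85), Col4a2 (3.71), Col9a2 (3.67), the fibrillar Col27a1 (3.44), Col6a1 (3.27) and the fibrillar Col11a2 (3.13). The transmembrane Col23a1 was at 2.90 FPKM, and the type I chains Col1a2 and Col1a1 were at 2.65 and 2.63 FPKM. From Col5a1 to Col1a1 the ranges of neighbouring genes over the 6 libraries overlapped, so their order is not resolved. Col10a1, a collagen of growth plate cartilage, had the lowest level at 0.0236 FPKM. The order also depends on the length used: on the length of 1 reference transcript, Col1a2 moved from rank 11 to rank 3 and Col25a1 from rank 27 to rank 16.

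**Figure D1:**
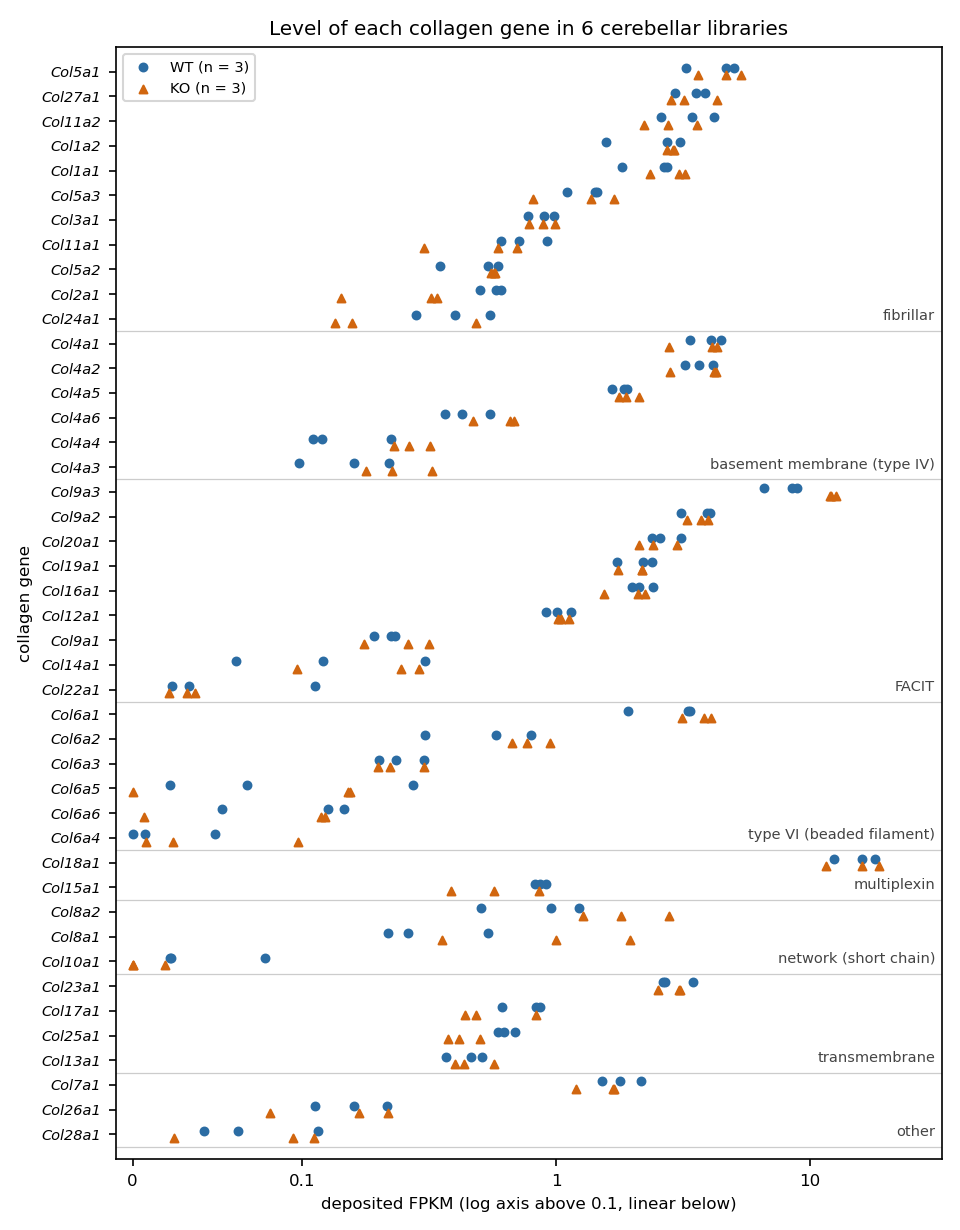
Deposited FPKM of the 44 collagen genes, 1 row per gene by class, with 3 WT circles and 3 KO triangles per row; the axis is logarithmic above 0.1 and linear below. Col18a1 and Col9a3 stand highest, and the WT and KO points of most genes lie among each other.

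By class, the fibrillar genes gave 25.8% ± 1.09 of the summed collagen FPKM in WT and 23.9% ± 1.61 in KO. Type IV genes gave 13.1% ± 2.02 and 12.4% ± 0.707, and FACIT genes 25.5% ± 0.793 and 28.3% ± 2.01 (SD, n = 3 each). The FACIT share was 24.8%, 25.3%, 26.3% (WT) and 28.0%, 30.5%, 26.5% (KO). The FACIT shares of the groups did not overlap, although KO 6 exceeded WT 5 only narrowly, and Col9a3 is the member with the highest level in the class. The FACIT genes summed to 20.1 ± 2.03 FPKM in WT and 23.9 ± 0.699 FPKM in KO. Col9a3 alone was at 7.97 ± 1.21 and 12.2 ± 0.384 FPKM. The difference between the group means was larger for Col9a3 alone than for the whole class. The FACIT share is one of several looked at, it was singled out after its values were seen, and no test was made of it. It was not the only share without overlap. The type VI share was 5.30%, 5.42%, 3.92% (WT) and 5.78%, 6.04%, 5.66% (KO). The 3 genes outside the named classes gave 2.76%, 2.31%, 2.74% (WT) and 2.13%, 1.80%, 2.20% (KO), lower in KO. The shares of the remaining classes overlapped. The short-chain network genes gave 1.58% ± 0.475 in WT and 3.75% ± 2.27 in KO, with the highest share (6.23%) in KO 4.

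**Figure D2:**
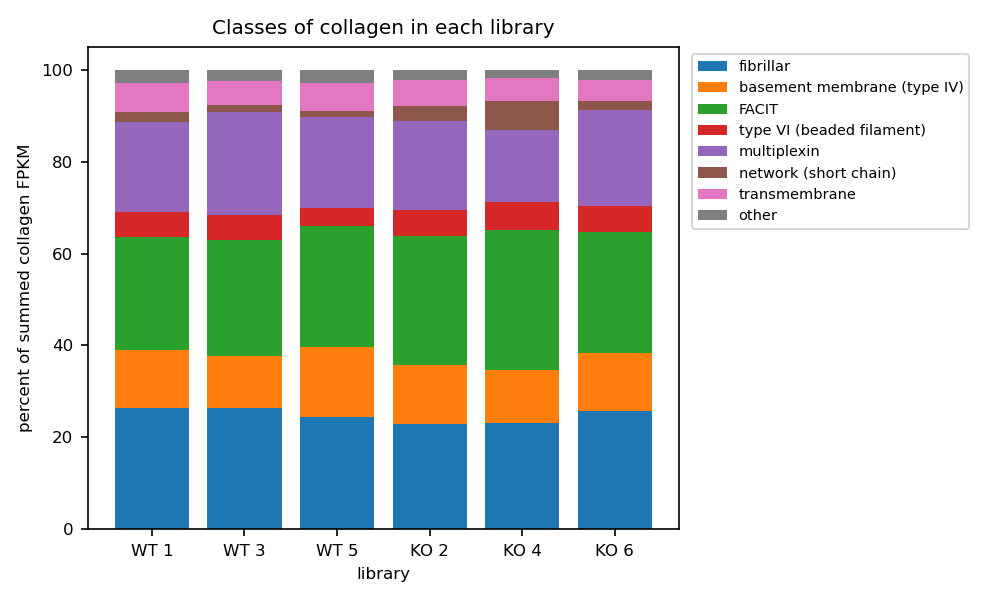
Percent of the summed collagen FPKM given by each class in the 6 libraries, as stacked bars that add up to 100. Fibrillar and FACIT genes together make up about as much in WT as in KO, and the network class is widest in KO 4.

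In the comparison of KO with WT no collagen gene passed the test. A gene was called at an adjusted p under 0.05 in edgeR's quasi-likelihood test over 17142 genes, and 0.0467% of all genes tested were called. Of the 44 members, 40 had enough counts to be tested and 0 were called, with log2 fold changes (KO minus WT) above 0 for 21 and below 0 for 19. Their median was 0.01, beside -0.004 for all genes tested. At an unadjusted p under 0.05 stood 6 members (15%), 4 of them higher and 2 lower in KO, beside 2.75% of all genes.

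The groups did not overlap for 5 of the 40 tested members (12.5%), beside 7.26% of all genes. The KO libraries were all higher for Col9a3, Col8a2 and Col4a4, and all lower for Col2a1 and Col25a1. In GRCm38, Col8a2 lies on chromosome 4 (126286793 to 126314330, plus strand), Col4a4 on chromosome 1 (82448423 to 82586849, minus strand), Col2a1 on chromosome 15 (97975602 to 98004695, minus strand) and Col25a1 on chromosome 3 (130131501 to 130599877, plus strand). Col8a1, the other gene at an unadjusted p under 0.05, lies on chromosome 16 (57624258 to 57754737, minus strand). The count of 5 rests on all 6 libraries. With 1 library left out, fewer libraries have to be apart and the count rises for all genes too. It was 11 members (27.5%) without WT 1, beside 14.7% of all genes, and 10 members (25%) without KO 2, beside 13.5%. Without WT 3 it was 6 members (15%, beside 13.7%), without WT 5 8 members (20%, beside 18.5%) and without KO 6 9 members (22.5%, beside 17.4%). Without KO 4 the count was 7 members (17.5%), just under the 18% of all genes. With WT 5 and KO 4 both left out it was 12 members (30%), beside 31% of all genes.

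The family varied widely between libraries. The ratio of the highest to the lowest library had a median of 1.84 in the family, beside 1.45 over all genes and 1.55 over the 3955 genes in the middle range of the members' levels. WT 5 was the lowest library for 12 of the 40 members and KO 4 for 13, against 21.5% and 21.8% of all genes. Those lowest in WT 5 included Col1a1, Col1a2, Col3a1 and the 3 main type VI genes. Those lowest in KO 4 included the basement membrane genes Col4a1, Col4a2, Col15a1 and Col18a1 and the fibrillar genes Col5a3, Col11a1, Col11a2 and Col27a1.

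**Figure D3:**
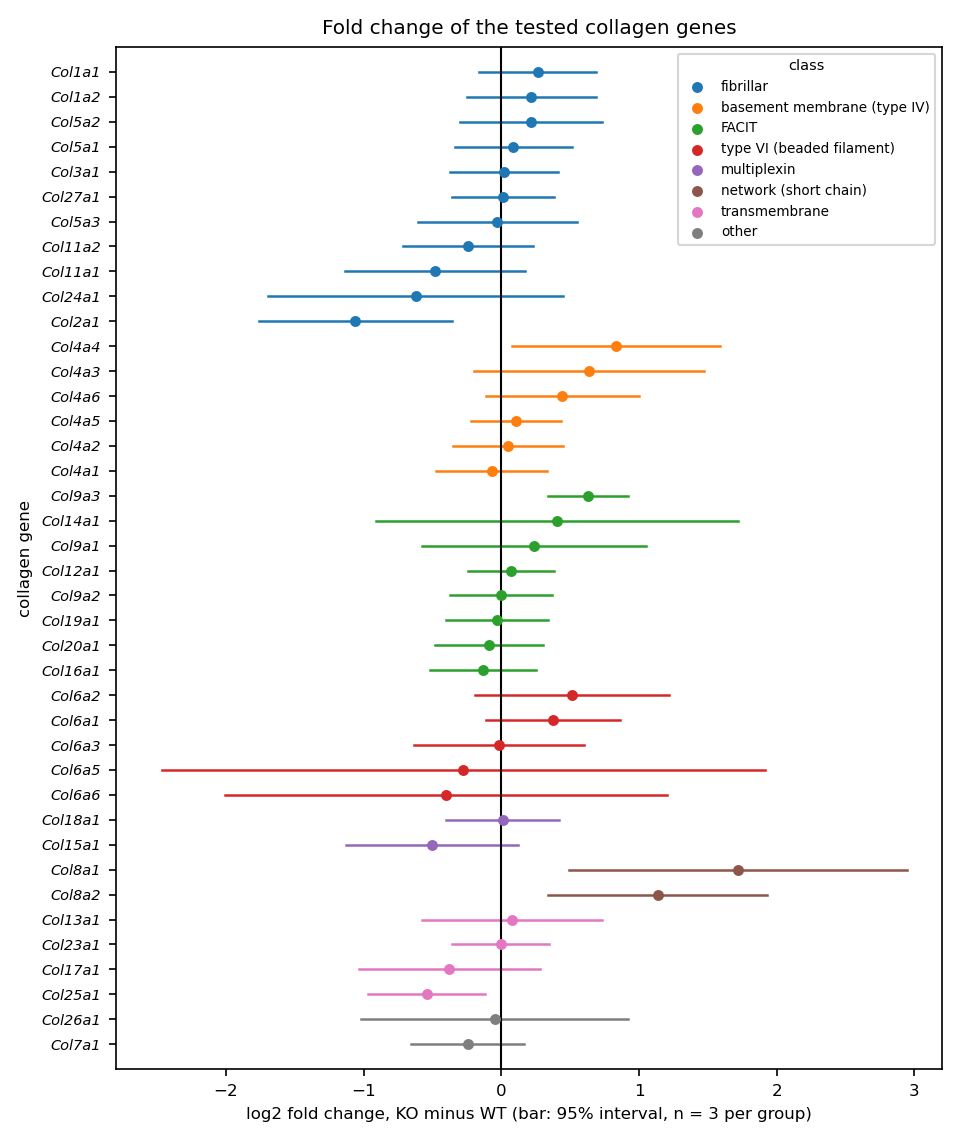
Log2 fold change (KO minus WT) with its 95% interval for the 40 tested collagen genes, coloured by class, from edgeR with 3 libraries per group. Most intervals cross 0; those of Col9a3, Col8a1, Col8a2 and Col4a4 lie above it and those of Col2a1 and Col25a1 below it.

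The 11 fibrillar genes had a median log2 fold change of 0.01, with 6 above 0 and 5 below, from -1.06 to 0.26. The type I chains, which form the main fibrils of meninges and adventitia, were close between the groups. Col1a1 measured 18.3, 18.7, 12.4 CPM (WT) and 16.2, 20.97, 22.1 CPM (KO), with a log2 fold change of 0.26 (SE 0.19, 95% interval -0.16 to 0.69). Its partner Col1a2 measured 40.1, 35.3, 20.2 CPM (WT) and 35.9, 38.0, 37.5 CPM (KO), with a log2 fold change of 0.22 (SE 0.21). For both genes WT 5 was the low library, the other libraries of the groups lay among each other, and without WT 5 the value of Col1a2 was -0.020. Leaving out both WT 5 and KO 4 gave 0.054 for Col1a1 and -0.037 for Col1a2.

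The ratio of Col1a1 to Col1a2, whose chains join in type I collagen, was 1.01 ± 0.149 in WT and 1.01 ± 0.136 in KO on the FPKM scale (SD, n = 3 each). The level of the ratio depends on the gene length used, and per kb of 1 reference transcript it was 0.480 (WT) and 0.479 (KO). Col3a1, the fibrillar chain of soft connective tissue, ranged over 7.90 to 10.1 CPM (WT) and 8.08 to 10.2 CPM (KO), with a log2 fold change of 0.02 (SE 0.18). Among the chains of types V and XI, which set the diameter of fibrils, Col5a1 ranged over 28.5 to 44.6 CPM (WT) and 32.1 to 47.6 CPM (KO), with a log2 fold change of 0.09 (SE 0.19). Col11a2 ranged over 18.3 to 29.8 CPM (WT) and 16.0 to 25.7 CPM (KO), with a log2 fold change of -0.24 (SE 0.21).

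Col2a1, the main fibrillar collagen of cartilage, was the member of the class farthest from 0. Per library it measured 4.85, 5.60, 5.78 CPM (WT) and 1.38, 3.13, 3.30 CPM (KO). Every KO library was below every WT library, and KO 2 was the lowest. The fitted log2 fold change came to -1.06 (SE 0.31, 95% interval -1.76 to -0.36), and the edgeR adjusted p was 1.0. The value was -0.75 without KO 2 and -1.27 without KO 6.

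The other fibrillar genes are given to account for every member. Col27a1, a chain of thin cartilage fibrils, ranged over 39.6 to 52.4 CPM (WT) and 38.9 to 58.7 CPM (KO), with a log2 fold change of 0.01 (SE 0.17). Col5a2, Col5a3, Col11a1 and Col24a1 had log2 fold changes of 0.22, -0.03, -0.48 and -0.62, each with a 95% interval that included 0.

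Of the 6 type IV genes, 5 had log2 fold changes above 0, with a median of 0.28 and a range of -0.07 to 0.83. The members with the highest levels were the ones nearest 0. Col4a1 and Col4a2 encode the chains of the common α1α1α2 network under all endothelium. Col4a1 measured 31.9, 26.1, 34.4 CPM (WT) and 32.4, 21.7, 33.7 CPM (KO), with a log2 fold change of -0.07 (SE 0.18, 95% interval -0.47 to 0.33). Col4a2 measured 28.7, 25.2, 21.9 CPM (WT) and 29.8, 19.5, 29.2 CPM (KO), with a log2 fold change of 0.05 (SE 0.18). The groups overlapped for both, with KO 4 lowest. The log2 fold changes of this pair changed sign with the library left out (-0.18 to 0.11 for Col4a1 and -0.055 to 0.22 for Col4a2).

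Col4a3 and Col4a4 encode chains that join with the product of Col4a5 in the α3α4α5 network, known from the kidney glomerulus. Col4a4 measured 1.23, 2.48, 1.32 CPM (WT) and 2.57, 3.55, 2.94 CPM (KO). All KO libraries were higher, although WT 3 lay just under KO 2. The fitted log2 fold change came to 0.83 (SE 0.34, 95% interval 0.08 to 1.59; edgeR adjusted p = 1.0), and it was 1.24 without WT 3 and 0.55 with WT 5 and KO 4 both left out. Col4a3 measured 1.67, 1.02, 2.27 CPM (WT) and 2.39, 3.41, 1.86 CPM (KO), with overlapping groups (log2 fold change 0.64, SE 0.37, 95% interval -0.20 to 1.47).

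Of the X-linked pair, Col4a5 ranged over 11.6 to 13.4 CPM (WT) and 12.6 to 15.0 CPM (KO), with a log2 fold change of 0.11 (SE 0.15). Col4a6 measured 3.04, 4.59, 3.51 CPM (WT) and 5.52, 5.71, 3.94 CPM (KO), with KO 6 below WT 3 (0.44, SE 0.25, 95% interval -0.11 to 1.00). The 3 largest fold changes of the class thus belonged to its 3 lowest genes, whose intervals are also its widest.

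The type IV genes lie in head-to-head pairs. Col4a4 starts at position 82586849 on the minus strand of chromosome 1 and Col4a3 at 82586921 on the plus strand, with 71 bases between them (GRCm38). These bases are shown because the members on either side had the largest fold changes of the class.
chr1:82586850-82586920, plus strand: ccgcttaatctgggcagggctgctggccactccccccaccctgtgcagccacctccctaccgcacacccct
Col4a1 (minus strand, start at 11312826 on chromosome 8) and Col4a2 (plus strand, start at 11312805) overlapped by 22 bases at their starts. Col4a6 and Col4a5 on the X chromosome were 1308 bases apart. Within the pairs the log2 fold changes were 0.83 and 0.64 for Col4a4 and Col4a3, -0.07 and 0.05 for Col4a1 and Col4a2, and 0.44 and 0.11 for Col4a6 and Col4a5.

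The FACIT genes had a median log2 fold change of 0.04 over the 8 tested members, with 4 above 0 and 4 below. Apart from Col9a3 the class stayed between -0.13 and 0.40. Col9a3 encodes the α3 chain of type IX collagen, which decorates the fibrils of cartilage and the vitreous, and it lies on chromosome 2 (180597790 to 180622189, plus strand). Per library it measured 34.2, 35.6, 26.3 CPM (WT) and 49.2, 48.3, 51.3 CPM (KO). Each KO library exceeded each WT library, and the KO libraries lay close together.

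For Col9a3 the fitted log2 fold change came to 0.63 (SE 0.13, 95% interval 0.34 to 0.92), and the edgeR adjusted p was 0.351. The call depended on the test. The authors' deposited table gave a log2 fold change of 0.63 with an adjusted p of 0.0278, and 0.128% of the genes with an adjusted p in that table were called. DESeq2 on the same genes as edgeR gave an adjusted p of 0.0112 (0.263% of genes called). edgeR without the filter on low counts gave an adjusted p of 0.00193 (0.443% of genes called). Over all alternatives the adjusted p ran from 0.00193 to 1.0 and the log2 fold change from 0.51 to 0.72.

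Of the exon bases of Col9a3, 6.07% lie opposite Tcfl5, a gene with 31 counts in all 6 libraries together, and it is not stated whether the counting used strand. The partners of Col9a3 in type IX collagen were nearer 0. Col9a2 measured 12.7, 13.1, 9.95 CPM (WT) and 12.9, 12.05, 10.7 CPM (KO), with a log2 fold change of -0.001 (SE 0.16, 95% interval -0.37 to 0.37). Col9a1 ranged over 1.02 to 1.23 CPM (WT) and 0.931 to 1.69 CPM (KO), with a log2 fold change of 0.24 (SE 0.36). The ratio of Col9a3 to Col9a2 in FPKM was 2.17, 2.19, 2.12 (WT) and 3.06, 3.22, 3.86 (KO). The groups did not overlap in this ratio, which was singled out after its values were seen and was not tested. The ratio of Col9a3 to Col9a1 in FPKM was 36.5, 46.0, 29.5 (WT) and 38.2, 45.6, 72.4 (KO), and there the groups overlapped.

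Among the other FACIT genes, Col20a1 ranged over 12.8 to 16.7 CPM (WT) and 11.4 to 16.1 CPM (KO), with a log2 fold change of -0.09 (SE 0.17). Col19a1, which interneurons of the brain are known to express, ranged over 12.5 to 17.1 CPM (WT) and 12.7 to 15.8 CPM (KO), with a log2 fold change of -0.03 (SE 0.17). Col16a1, Col12a1 and Col14a1 had log2 fold changes of -0.13, 0.07 and 0.40, with 95% intervals that included 0. For Col19a1 the KO range lay within the WT range, and for Col20a1 the groups overlapped with KO 4 below every WT library.

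The largest fold changes of the family belonged to the short-chain network genes, whose chains form the type VIII lattice of the corneal Descemet membrane and of vessel walls. Col8a1 measured 4.42, 1.78, 2.12 CPM (WT) and 8.29, 16.0, 2.94 CPM (KO). KO 4 was far above the rest and KO 6 lay below WT 1, so the groups overlapped. The fitted log2 fold change came to 1.72 (SE 0.55, 95% interval 0.49 to 2.94; edgeR adjusted p = 1.0), and it was 1.03 without KO 4 and 0.88 with WT 5 left out as well. Without the filter on low counts edgeR gave an adjusted p of 2.89e-08, against 1.0 at the other end of the alternatives.

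Col8a2 measured 5.80, 4.46, 2.34 CPM (WT) and 8.54, 13.2, 6.02 CPM (KO). The KO libraries were all higher, with KO 6 next to WT 1. The fitted log2 fold change came to 1.14 (SE 0.36, 95% interval 0.34 to 1.93; edgeR adjusted p = 1.0). Leaving out both WT 5 and KO 4 gave 0.52, and the adjusted p without the low-count filter was 0.000929. The adjusted p of the alternatives ran up to 1.0.

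The 100 bases before the starts of both type VIII genes are shown, since these members had the highest fold changes of the family. They are from RefSeq on GRCm38.p6, 5′ to 3′ on the strand of the gene. Capitals mark the GC box (GGGCGG or its reverse complement CCGCCC).
Col8a1, chr16:57754738-57754837, minus strand: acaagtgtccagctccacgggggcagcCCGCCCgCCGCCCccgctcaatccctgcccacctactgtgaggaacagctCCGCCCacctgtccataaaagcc
Col8a2, chr4:126286694-126286793, plus strand: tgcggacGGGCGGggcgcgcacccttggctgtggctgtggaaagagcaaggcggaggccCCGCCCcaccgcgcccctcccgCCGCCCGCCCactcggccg
The letters GGGCGG were found on either strand in 23 of 38 windows around the starts of 35 matched members (60.5%), each from 250 bases before to 50 after. They were found in 35.7% of the 32851 windows of all genes. The family's windows had a median GC content of 59.8%, against 52.7% for all. TATAAA was found in 13.2% of the family's windows and 13.6% of all, and CCAAT in 34.2% and 37.4%. A match is a run of letters in the window, and occupancy was not measured.

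**Figure D4:**
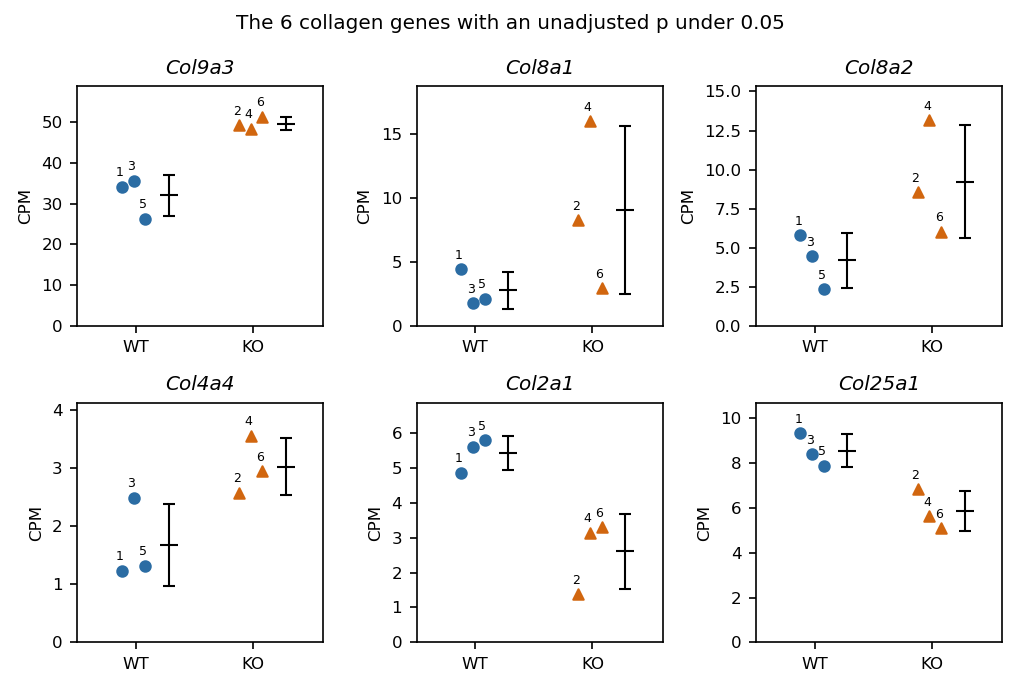
CPM of the 6 collagen genes with an unadjusted p under 0.05, with 1 point per library labelled by animal number and the group mean and SD (n = 3) beside it. Col9a3 shows narrow, separate groups; Col8a1 and Col8a2 are spread widely in KO, with KO 4 highest.

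Among the transmembrane collagens, Col25a1 encodes a neuronal membrane collagen whose shed fragment binds amyloid. Per library it measured 9.34, 8.41, 7.90 CPM (WT) and 6.84, 5.64, 5.09 CPM (KO). All KO libraries were lower than all WT libraries (log2 fold change -0.54, SE 0.19, 95% interval -0.96 to -0.12; edgeR adjusted p = 1.0), and the value stayed between -0.67 and -0.45 with any 1 library left out. Col23a1 ranged over 15.8 to 20.7 CPM (WT) and 15.2 to 18.6 CPM (KO), with a log2 fold change of -0.005 (SE 0.16). Col17a1, known from the hemidesmosomes of epithelia, ranged over 3.66 to 5.22 CPM (WT) and 2.65 to 5.08 CPM (KO), with a log2 fold change of -0.38 (SE 0.29). Col13a1 had a log2 fold change of 0.08 (SE 0.29).

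In type VI, which forms beaded filaments next to basement membranes, Col6a1 measured 15.1, 15.3, 8.70 CPM (WT) and 18.8, 14.4, 17.6 CPM (KO), with a log2 fold change of 0.37 (SE 0.22). Col6a2 measured 6.95, 5.03, 2.63 CPM (WT) and 5.90, 8.29, 6.74 CPM (KO), with a log2 fold change of 0.51 (SE 0.31). In both genes WT 5 was low and the groups overlapped, and without WT 5 the values were 0.16 and 0.22. With KO 4 left out too they were 0.26 and 0.082. Col6a3 was at -0.02 (SE 0.28). Col6a5 and Col6a6 had few counts that differed from library to library, with 0 counts of Col6a5 in KO 2 and 42 in WT 3.

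Of the multiplexins, Col18a1 had a log2 fold change of 0.01 (SE 0.18, 95% interval -0.40 to 0.42). Col15a1, a basement membrane collagen of vessels, measured 5.51, 5.73, 6.00 CPM (WT) and 5.71, 2.58, 3.80 CPM (KO). KO 2 lay among the WT libraries, and KO 4 was lowest (-0.51, SE 0.28, 95% interval -1.13 to 0.12), and without WT 5 and KO 4 the value was -0.23. Col7a1, which forms the anchoring fibrils of skin, ranged over 16.1 to 23.2 CPM (WT) and 12.9 to 18.3 CPM (KO), with a log2 fold change of -0.25 (SE 0.19), and Col26a1 was at -0.05 (SE 0.43).

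The 4 members without enough counts for a test were Col22a1, Col6a4, Col10a1 and Col28a1. The counts of Col22a1 were 15, 5, 3 (WT) and 5, 3, 5 (KO), and those of Col28a1 were 3, 5, 8 (WT) and 2, 7, 8 (KO). The counts of Col6a4 were 6, 1, 0 (WT) and 14, 1, 3 (KO), and those of Col10a1 were 1, 4, 1 (WT) and 1, 0, 0 (KO). At this depth no difference in them could be detected.

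Whole cerebellum holds several cell types, and in bulk RNA fewer cells of a type and less RNA per cell cannot be told apart. Marker genes of the cell types known to make collagen were therefore read in the same libraries. Markers of the labelled tissue were abundant: those of cerebellar neurons, such as Cbln3 and Car8, summed to 5925 to 6460 CPM in WT and 5689 to 6488 CPM in KO. Forebrain markers summed to 5.59 to 7.61 CPM in 5 libraries and to 22.0 CPM in KO 4. Every marker of every list had counts in at least 1 library.

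Choroid plexus epithelium markers were uneven. Their sums were 800, 298, 169 CPM (WT) and 1419, 1949, 649 CPM (KO). All 14 had log2 fold changes above 0 (median 1.39), and 0 were called by edgeR. At an unadjusted p under 0.05 stood 13 of them, beside 2.75% of all genes. As markers of the same cell type, these are not 13 separate observations. Ttr, the transthyretin gene, made up most of the sum. The order of the 6 libraries in this sum was the order of Col8a2, except that WT 1 and KO 6 changed places, and KO 4 and KO 2 were highest for Col8a1 too. The choroid plexus sums of WT 1 and KO 6 were 800 and 649 CPM. The median over the markers of the deviation from the mean of the 6 libraries, in log2(CPM + 0.1), was 0.30 in WT 1 and -0.15 in KO 6. In WT 1 and KO 6, Col8a1 was at 4.42 and 2.94 CPM, Col8a2 at 5.80 and 6.02 CPM and Col9a3 at 34.2 and 51.3 CPM. The part of choroid plexus RNA in the values of Col8a1, Col8a2 and Col9a3 was not tested.

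The sums of the meningeal fibroblast markers were 858, 902, 549 CPM (WT) and 922, 897, 1007 CPM (KO). Of the 13 markers, 12 had log2 fold changes above 0 (median 0.18) and 0 were called. Ogn had the largest log2 fold change, at 0.42. Ptgds, the marker with the highest level, was at 0.33 and made up most of each sum, with 653, 709, 375 CPM (WT) and 726, 654, 810 CPM (KO). The other markers did not follow it in every library: Dcn, Lum, Ogn, Slc6a20a and Aldh1a2 were highest in KO 4. The median over the 13 markers of the deviation from the mean of the 6 libraries, in log2(CPM + 0.1), was 0.58 in KO 4, -0.04 in KO 6 and -0.31 in WT 5. WT 5 was the lowest library in the sum and in this median, as it was for Col1a1, Col1a2, Col6a1 and Col6a2. Whether meningeal RNA set these values was not tested. Endothelial markers summed to 405 to 445 CPM in WT and 436 to 503 CPM in KO (median log2 fold change 0.15), and mural cell markers to 220 to 243 and 230 to 253 CPM (median -0.005). In KO 4, the lowest library for Col4a1 and Col4a2, these sums were 436 and 230 CPM, within the WT range of each. The median deviation, taken as above, was 0.06 in KO 4 for the endothelial markers. For the mural markers it was -0.19 in KO 4 and -0.20 in WT 5, against 0.03 to 0.18 in the other libraries. Whether vessel RNA set the values of Col4a1 and Col4a2 was not tested.

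**Figure D5:**
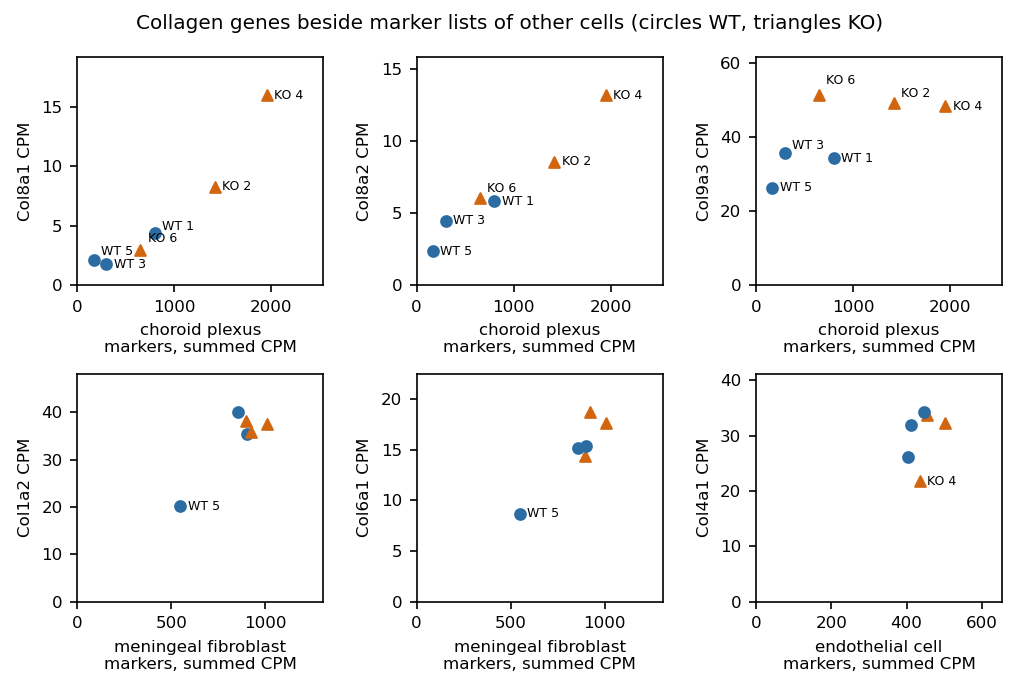
CPM of a collagen gene against the summed CPM of a marker list in each library, with circles for WT and triangles for KO; the upper panels name every library, and the lower panels name only the lowest one. Col8a1 and Col8a2 stand highest in the libraries with the most choroid plexus marker RNA, Col9a3 is high in all KO libraries, and WT 5 is low in Col1a2, Col6a1 and the meningeal sum, most of which is Ptgds.

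No gene of the lists for making, processing, sensing and degrading collagen was called. Of 18 tested genes of collagen synthesis in the endoplasmic reticulum, 1 stood at an unadjusted p under 0.05, beside 2.75% of all genes. Of the 18 log2 fold changes, 14 were above 0, with a median of 0.07. P3h2, a prolyl 3-hydroxylase of type IV collagen, measured 0.942, 0.700, 0.439 CPM (WT) and 2.39, 0.836, 1.36 CPM (KO), with a log2 fold change of 1.14 (SE 0.49). KO 4 lay below WT 1. Crtap, a part of the prolyl 3-hydroxylation complex, was at 0.38 (SE 0.20), with all KO libraries higher than all WT libraries. Mia3, which loads procollagen for export and has the highest CPM of the list, was at -0.07 (SE 0.09), with all KO libraries lower. Groups did not overlap for 7.26% of all genes tested.

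Of 10 tested genes of procollagen processing and cross-linking, 1 stood at an unadjusted p under 0.05, beside 2.75% of all genes. Of the 10 log2 fold changes, 6 were above 0 (median 0.07). Lox, the lysyl oxidase that cross-links collagen and elastin, measured 2.03, 2.10, 2.05 CPM (WT) and 2.82, 3.90, 2.72 CPM (KO). The KO libraries were all higher (log2 fold change 0.61, SE 0.27, edgeR adjusted p = 1.0). Pcolce, an enhancer of procollagen cleavage, was at 0.63 (SE 0.31), and Bmp1, the procollagen C-proteinase, at -0.09 (SE 0.17).

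Of 11 collagen receptors 5 were above 0 and 6 below (median -0.001), of 10 genes of collagen breakdown and its inhibitors 4 and 6 (median -0.02), and of 14 other basement membrane genes 9 and 5 (median 0.16), with 0 at an unadjusted p under 0.05 in each list. Lair1, an inhibitory collagen receptor of immune cells, was at 0.40 (SE 0.19), Itga11 at 0.84 (SE 0.52) and the collagen-binding kinase Ddr1 at 0.06 (SE 0.14). The gelatinase Mmp2 was at 0.57 (SE 0.31), Timp3 at 0.14 (SE 0.11) and Timp4 at -0.02 (SE 0.11). Nid2, a linker of laminin and type IV collagen, was at 0.93 (SE 0.47), the laminin chain gene Lamb1 at 0.22 (SE 0.14) and Agrn at -0.02 (SE 0.14).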

How the data were processed

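The deposited table holds whole-number counts per gene and library, which the authors made from their reads. The submitters' processing notes name HISAT2, DESeq2 and the mouse build GRCm38.p6. The sources used here do not give the counting program or its strand setting. The headers of the deposited FPKM columns name the measure and give no formula. These columns were read as counts scaled to a gene length and a library size. The authors' group means are a normalized signal per group and were not printed. The authors' log2 fold changes and p-values are from their own comparison of KO with WT, per the file headers.

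Titles of the samples gave the groups. The test was run in edgeR 4.0.16 (quasi-likelihood, TMM factors 0.990 to 1.01, filterByExpr, Benjamini-Hochberg over 17142 genes, calls at an adjusted p under 0.05) in R 4.3.3. CPM are TMM-normalized. Intervals are 95% intervals of the fit. DESeq2 1.42.0 and limma 3.58.1 (voom) served as alternatives, with other normalizations and filters, each library left out, and WT 5 and KO 4 both left out. Of these steps only the main edgeR fit was tried on simulated counts with known changes. The simulation held no odd library such as WT 5 or KO 4. Coordinates, coding sequences and exon overlaps are from GENCODE M21 (all 44 members matched), and promoters from RefSeq. Python 3.11.15, pandas 2.3.3 and matplotlib 3.10.9 were used for tables and plots.

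The members, classes, pathway and marker lists and the rule for named genes were chosen with earlier results of these data known. The rule took the 12 members with the highest FPKM, the 3 highest of each class, the 5 with the largest fold change and the 5 with the smallest p, and all type IV genes. It also took 3 genes of each pathway list (2 by p, 1 by CPM) and the 2 highest of each marker list. Other members are named to account for the whole family. Replicates are separate animals, and 3 per group limit the precision.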

Additional observations from a re-analysis of the deposited data

How the results depend on the processing

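Over all genes, 8 were called, 142 without the low-count filter, 45 with DESeq2, 40 with WT 5 and KO 4 both left out and 0 to 28 with 1 library left out. Calls fell to 0 without WT 1 or WT 3, 2 without KO 2 and 3 without KO 6, and rose to 17 without KO 4 and 28 without WT 5. Collagen genes called were 0 of 40, beside 0.0467% of all genes. Without the low-count filter they were 3 of 44 (Col9a3, Col8a1 and Col8a2), beside 0.443% of all genes. With DESeq2 the only one of 40 was Col9a3, beside 0.263% of all genes, and the other alternatives called 0. The 5 collagen genes with groups that do not overlap (12.5%, beside 7.26% of all genes) became 6 to 11 with 1 library left out (15% to 27.5%, beside 13.5% to 18.5% of all genes) and 12 with WT 5 and KO 4 left out (30%, beside 31%). The type IV median of 0.28 was 0.29 with library totals only, 0.25 with WT 5 and KO 4 left out and 0.22 to 0.31 with 1 library left out. The medians of the family and of the fibrillar and FACIT genes moved by less than the spread between replicates under every alternative. Of 378 pairs of a named gene and an alternative, 335 kept direction and call, 4 gained a call and 39 changed sign, in 11 genes whose reported values lay within 0.22 of 0.

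Signs changed as follows. With library totals only, Col9a2 was at 0.017, Col6a3 at 0.00018 and Col23a1 at 0.013. With no low-count filter, Col9a2 was at 0.0032 and Col23a1 at 0.00081, and with at least 1 CPM in 3 libraries Col9a2 was at 0.00025. With limma-voom, Col27a1 was at -0.0017, Col9a2 at 0.0039, Col18a1 at -0.0020 and Col23a1 at 0.0045. With WT 5 and KO 4 left out, Col1a2 was at -0.037, Col4a1 at 0.19, Col23a1 at 0.024 and Col26a1 at 0.51. With 1 library left out, Col18a1 ran from -0.15 to 0.18, Col1a2 from -0.020 to 0.42, Col20a1 from -0.23 to 0.033 and Col23a1 from -0.068 to 0.14. Col26a1 ran from -0.35 to 0.26, Col27a1 from -0.17 to 0.14, Col4a1 from -0.18 to 0.11, Col4a2 from -0.055 to 0.22, Col5a1 from -0.080 to 0.23, Col6a3 from -0.21 to 0.16 and Col9a2 from -0.11 to 0.077. The cause of these changes in sign and in calls was not tested.

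No paired analysis was made, because the sample titles name no litter or other pairing of the animals. With 3 animals per group and members of a few CPM, a missed threshold does not show that a gene was alike in both groups. A floor of 3 counts, which was chosen and not measured, was worth 0.188 to 0.219 CPM per library.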
